A study of Mus musculus with 6 samples.

Results

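INO80 is a chromatin remodeling complex, and its 10 genes described here were Ino80, Ino80b, Ino80c, Ino80d, Ino80e, Actr5, Actr8, Nfrkb, Mcrs1 and Tfpt. They were taken by gene symbol from a list of subunits that are not shared with most other remodelers, and 10 of 10 were present among the 24982 symbols of the count tables. RNA-seq read counts came from KMWT1, a mouse glioma cell line, harvested 48 hours after transfection with siRNA. The cells of 3 samples (1, 2 and 3) had received a control siRNA, and those of 3 others (4, 5 and 6) a pool of siRNAs against YY1; no further genotype or treatment is labelled in either group. The labels do not state whether samples of a group were separate cultures, so each p-value below measures the spread between samples, which may be technical.

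The INO80 complex uses ATP to slide nucleosomes and to edit their histone content, and it has been linked to the removal of the histone variant H2A.Z. It works in transcription, DNA replication and DNA repair. In mammalian cells the zinc finger protein YY1 copurifies with INO80 and helps to bring it to promoters. Ino80 encodes the ATPase on which the other subunits assemble.

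Counts in genes numbered 15738457 to 20644057 per library, and 7.87% to 11.3% of all counts in a library had been assigned to no gene. YY1 siRNA samples 5 and 6 had the highest such shares, at 10.7% and 11.3%. Sample 6, whose table alone is not marked as combined (a term the labels leave unexplained), also had the fewest counts and stood apart on the first principal component, which held 44.2% of the variance, while sample 4 stood apart on the second, with 18.7%. Of 12 glioma and progenitor markers, 7 stood at 10 CPM (counts scaled to library size) or more in both groups and 5 under 1 CPM, namely Olig2, Olig1, Gfap, Fabp7 and Prom1. All 5 neuron and all 5 microglia and macrophage markers stayed under 1 CPM, and 3 of 5 fibroblast and pericyte markers stood at 10 CPM or more. Yy1 itself stood at 127, 128 and 126 CPM in control siRNA samples and at 81.2, 77.6 and 78.6 CPM in YY1 siRNA samples, 62.3% of control (log2 fold change -0.68, SE 0.064, edgeR adjusted p 0.00154). In RNA from whole cultures, a lower level in each cell and a loss in part of the cells cannot be told apart.

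Promoter sequence was inspected because YY1 binds DNA through the motif AANATGGCG. The stretches below show matches to it, or only to its first 7 letters, in INO80 genes with a listed promoter. RefSeq promoters (250 bases before to 50 after the start, GRCm38.p6, the build called mm10) were listed for 6 of the 10 genes, Ino80, Ino80b, Ino80e, Nfrkb, Mcrs1 and Tfpt, and not for Ino80c, Ino80d, Actr5 and Actr8. The full motif, searched on both strands, occurred in 1 of these 6, Ino80e, against 2.76% of all 27025 symbols with a promoter. Its first 7 letters alone, AANATGG, occurred in 3 of the 6, Ino80e, Ino80b and Mcrs1, against 18.2% of all symbols. Each stretch is written 5′ to 3′ on the strand of its gene, the minus strand in all 3 cases, with the match in capitals.
Ino80e, chr7:126862409-126862497, full motif on the opposite strand: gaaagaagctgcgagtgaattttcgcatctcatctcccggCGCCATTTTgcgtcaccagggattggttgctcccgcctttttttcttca
Mcrs1, chr15:99252000-99252086, first 7 letters: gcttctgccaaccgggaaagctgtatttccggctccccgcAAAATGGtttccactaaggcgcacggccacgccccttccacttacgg
Ino80b, chr6:83125145-83125231, first 7 letters: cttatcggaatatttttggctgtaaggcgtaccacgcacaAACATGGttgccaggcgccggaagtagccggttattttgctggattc

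Counted from the RefSeq start, the match in Ino80e lay 85 to 77 bases upstream. That in Mcrs1 lay 85 to 79 and that in Ino80b 72 to 66 bases upstream. Ino80b held a further match 217 to 211 bases upstream, which with the next base fits the first 8 letters, AANATGGC. In the gene model used for the coordinates below, Ino80b reaches 83125431, so both of its matches lie within the gene span. Another RefSeq promoter listed for Ino80e, chr7:126861414-126861713, held no match. A match of letters is a description of the sequence and says nothing about binding in these cells.

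No INO80 gene passed the test between YY1 siRNA and control siRNA. With the quasi-likelihood test of edgeR, 0 of 10 had an adjusted p under 0.05, the share over all 12148 genes tested being 0.00823%, which is Yy1 alone. The adjusted p ran from 0.432 for Ino80c to 0.995 for Ino80, and DESeq2 and limma-voom also called 0 of the 10. At an unadjusted p under 0.05 there was 1 of the 10, Ino80c, against 10.8% of all genes tested; it lay higher with YY1 siRNA, as did 5.38% of all genes at that p. The fitted change lay above 0 for 6 genes and below 0 for 4, with a median log2 fold change of 0.016 against 0.00070 over all genes tested. All 10 genes passed the filter on low counts. For 9 of the 10 the 95% interval of the fold change stayed within 1.5-fold up or down, where the bounds ran from 0.749 (Actr5) to 1.32 (Ino80c). Ino80d was the exception, with an interval up to 1.89. The lowest bound, 0.749, stood above the upper bound of Yy1 itself, 0.686.

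**Figure D1:**
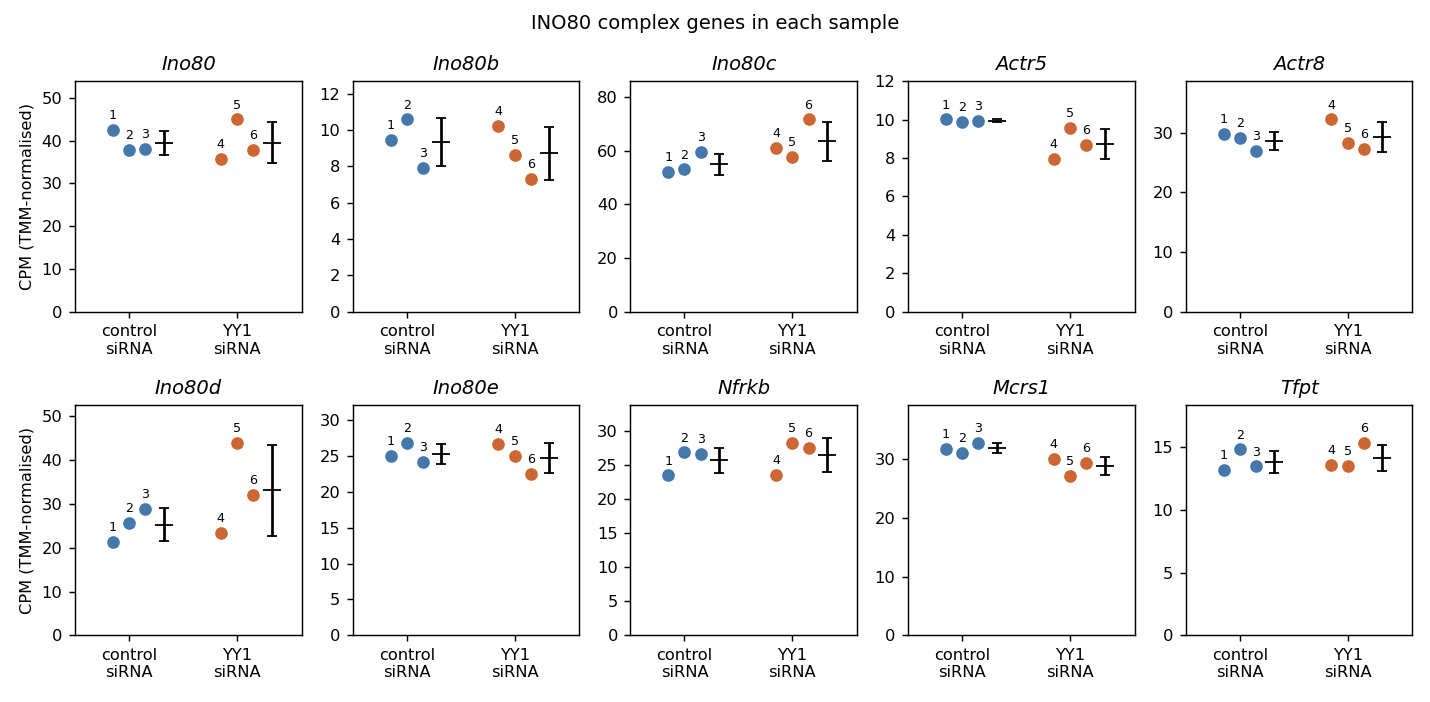
TMM-normalised CPM of each INO80 gene in the 6 samples (points, numbered as in the labels), with the mean and SD of each group of 3 beside them (black). The groups overlap in all but Actr5 and Mcrs1, and YY1 siRNA sample 5 is high for Ino80d.

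Among the catalytic subunit and the proteins bound closest to it, Ino80 RNA was level between the groups. The gene lies on chromosome 2 from 119373042 to 119477687, minus strand (mm10, like all gene coordinates here). It stood at 42.6, 37.8 and 38.0 CPM in control siRNA samples 1, 2 and 3 and at 35.8, 45.0 and 37.8 CPM in YY1 siRNA samples 4, 5 and 6. The highest and the lowest of the 6 values were both in the YY1 siRNA group, and the fold change was 1.00 (95% interval 0.869 to 1.15, log2 fold change 0.0019, SE 0.094, edgeR adjusted p 0.995).

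Ino80b encodes a small subunit that stimulates the ATPase, the relative of yeast Ies2. It lies on chromosome 6 from 83121765 to 83125431, minus strand. It stood at 9.48, 10.6 and 7.94 CPM with control siRNA and 10.2, 8.66 and 7.31 CPM with YY1 siRNA. The groups overlapped over most of their range (fold change 0.940, 95% interval 0.759 to 1.16).

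Ino80c, the relative of yeast Ies6 and partner of the actin-related protein Arp5, had the smallest p of the 10. It lies on chromosome 18 from 24104757 to 24121953, minus strand. Its level was 52.3, 53.1 and 59.5 CPM in control siRNA samples and 61.1, 57.6 and 71.7 CPM in YY1 siRNA samples. YY1 siRNA sample 6 was the highest, and sample 5 lay below control siRNA sample 3, so the groups overlapped. The log2 fold change was 0.21 (SE 0.090, unadjusted p 0.0394, edgeR adjusted p 0.432). It was 0.11 without YY1 siRNA sample 6 (unadjusted p 0.198), the library with the fewest counts. Without control siRNA sample 1 or 2 the unadjusted edgeR p was 0.129 or 0.125. Over the 14 alternatives described below, the unadjusted p of Ino80c was under 0.05 in 8.

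Actr5 encodes Arp5, which together with Ino80c couples the ATPase to nucleosome movement. It lies on chromosome 2 from 158624888 to 158639211, plus strand. It stood at 10.00, 9.86 and 9.95 CPM in control siRNA samples, the narrowest spread of any INO80 gene (coefficient of variation 0.717%). These values rest on 208, 190 and 188 counts, for which sampling noise alone is wider than this spread. In YY1 siRNA samples it stood at 7.97, 9.56 and 8.68 CPM, each below all 3 control values. The log2 fold change was -0.19 (SE 0.107, unadjusted p 0.106, edgeR adjusted p 0.522). It was -0.11 without YY1 siRNA sample 4, the lowest, and -0.26 without sample 5.

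Actr8 encodes Arp8, which with actin binds the DNA beside the nucleosome. The gene is on chromosome 14 from 29978337 to 30006354, plus strand. It stood at 29.8, 29.1 and 26.9 CPM with control siRNA and 32.2, 28.3 and 27.3 CPM with YY1 siRNA, with the groups overlapping (fold change 1.02, 95% interval 0.898 to 1.17).

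The remaining 5 genes encode subunits found in animals and not in yeast INO80. Ino80d lies on chromosome 1 from 62958418 to 63114667, minus strand, and had the widest spread. It stood at 21.4, 25.6 and 28.8 CPM in control siRNA samples and at 23.3, 43.8 and 32.1 CPM in YY1 siRNA samples. Samples 5 and 6 lay above every control and sample 4 among the controls, so that the highest value was 2.05 times the lowest. The log2 fold change was 0.39 (SE 0.226, unadjusted p 0.127, edgeR adjusted p 0.543). It was 0.60 without YY1 siRNA sample 4 (unadjusted p 0.00905, edgeR adjusted p 0.159) and 0.13 without sample 5 (unadjusted p 0.457).

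The samples in which Ino80d was high are also those with the largest shares of counts in no gene. In control siRNA samples that share was 7.99%, 8.64% and 9.03%, and in YY1 siRNA samples 7.87%, 10.7% and 11.3%. With this share as a covariate in the edgeR fit, the log2 fold change of Ino80d was 0.062 (SE 0.156, unadjusted p 0.698). Because the highest shares both lie in the YY1 siRNA group, this fit cannot fully separate the share from the siRNA. Of 6 listed nuclear-retained RNAs, 3 were tested, none passed and 0 had an unadjusted p under 0.05, against 10.8% of all genes tested. Malat1 stood at 704 and 770 CPM in YY1 siRNA samples 5 and 6, against 362 CPM in sample 4 and 456 to 615 CPM in control samples. Kcnq1ot1 stood at 11.95 and 10.8 CPM in samples 5 and 6, against 4.77 CPM in sample 4 and 5.24 to 8.25 CPM in control samples. Neat1, the most abundant of them, stood at 1700 and 1788 CPM in samples 5 and 6, against 1168 CPM in sample 4 and 1316 to 1683 CPM in control samples, so that sample 5 lay close to the highest control (log2 fold change 0.067, unadjusted p 0.682). Meg3, Rian and Mirg stood at or near 0. Apart from the covariate fit, which cannot settle it, the part of the no-gene share in the Ino80d values was not tested.

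**Figure D2:**
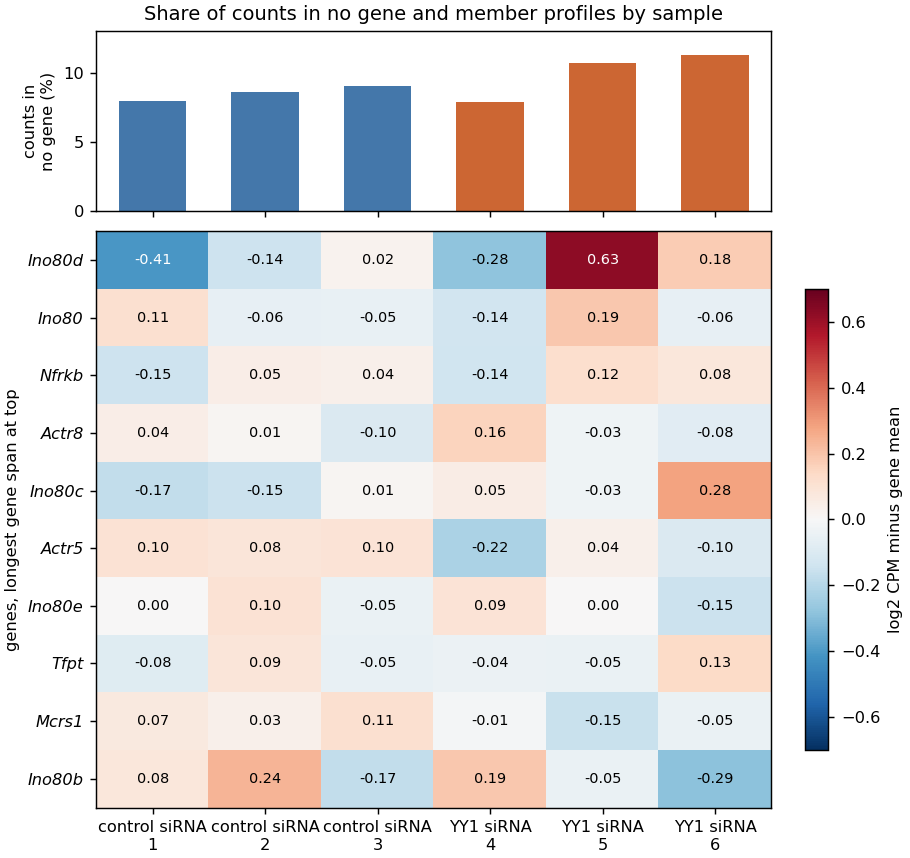
Top, the percentage of each sample's counts assigned to no gene. Bottom, log2 CPM of each INO80 gene minus its own mean over the 6 samples, genes ordered from the longest span on the genome (Ino80d) to the shortest (Ino80b); Ino80d reaches 0.63 in YY1 siRNA sample 5 and -0.41 in control siRNA sample 1.

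Ino80e, the gene with the full YY1 motif in a listed promoter, shown above, lies on chromosome 7 from 126850960 to 126862377, minus strand. It stood at 24.9, 26.7 and 24.1 CPM in control siRNA samples and at 26.6, 24.9 and 22.5 CPM in YY1 siRNA samples. The groups overlapped, and the fold change was 0.978 (95% interval 0.857 to 1.12, log2 fold change -0.032, SE 0.088, edgeR adjusted p 0.909). Opposite-strand genes cover 14.4% (Doc2a) and 1.96% (Hirip3) of its exonic bases, and no strand setting of the counting is given in the sources used here. Without strand, reads from these stretches cannot be told apart between the genes, and how far they could move the Ino80e value was not measured. For the other 9 INO80 genes, no overlapping gene covers more than 5.71% of the exonic bases (Ino80b).

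Nfrkb encodes the subunit that anchors the deubiquitinase Uchl5 to the complex. It lies on chromosome 9 from 31386192 to 31421333, plus strand. It stood at 23.5, 26.8 and 26.7 CPM with control siRNA and 23.6, 28.2 and 27.5 CPM with YY1 siRNA. Low and high values occurred in both groups, which overlapped (fold change 1.03, 95% interval 0.894 to 1.19).

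Mcrs1, which also serves in a histone acetyltransferase complex, lies on chromosome 15 from 99242817 to 99251961, minus strand. It stood at 31.7, 31.0 and 32.7 CPM in control siRNA samples and at 30.05, 27.2 and 29.3 CPM in YY1 siRNA samples. All 3 YY1 siRNA values lay below all 3 control values, by a margin of under 1 CPM between the nearest pair. The log2 fold change was -0.14 (SE 0.077, 95% interval of the fold change 0.807 to 1.02, unadjusted p 0.0911, edgeR adjusted p 0.508).

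Tfpt, known as a fusion partner in childhood leukemia, lies on chromosome 7 from 3620324 to 3629929, minus strand. It stood at 13.2, 14.8 and 13.5 CPM with control siRNA and 13.6, 13.5 and 15.3 CPM with YY1 siRNA, and the groups overlapped (fold change 1.02, 95% interval 0.882 to 1.18).

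Actr5 and Mcrs1 were thus the 2 of 10 INO80 genes whose groups did not overlap, both with YY1 siRNA below control. Over all genes tested, 16.3% had groups that did not overlap, 8.91% with YY1 siRNA below, so a count of 2 of 10 lies near the background.

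**Figure D3:**
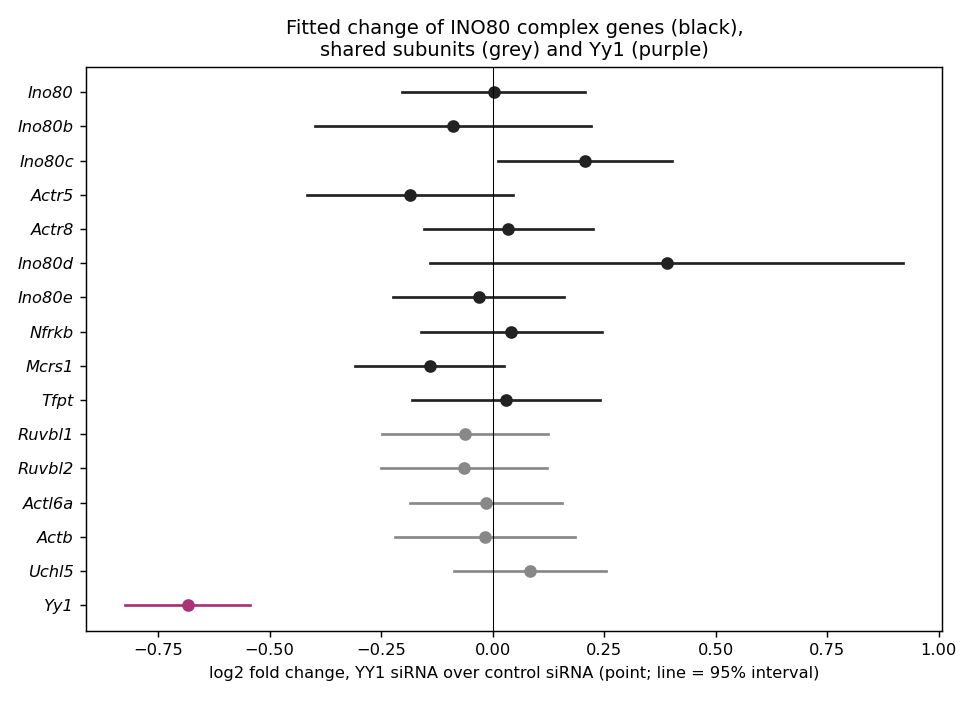
Fitted log2 fold change of YY1 siRNA over control siRNA (points) with its 95% interval (lines) for the 10 INO80 genes, 5 subunits shared with other complexes, and Yy1. Ino80d has the widest interval, Ino80c alone among the 10 has an interval that leaves out 0, before adjustment over all genes, and Yy1 lies apart at -0.68.

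Among the subunits that INO80 shares with other complexes, 0 of 5 besides Yy1 passed and 0 had an unadjusted p under 0.05. Over all genes tested, those shares were 0.00823% and 10.8%. Ruvbl1 and Ruvbl2, which form a ring of AAA+ ATPases on which INO80, SRCAP and TIP60 complexes are built, stood at 24.6 ± 0.490 and 112 ± 7.51 CPM with control siRNA and at 23.5 ± 2.03 and 107 ± 11.3 CPM with YY1 siRNA (SD, n = 3). Actl6a, an actin-related protein also found in SWI/SNF, stood at 51.4 ± 3.93 and 50.9 ± 2.84 CPM, and Actb at 2330 ± 53.1 and 2303 ± 155 CPM. Uchl5, the deubiquitinase, stood at 26.7 ± 1.08 and 28.3 ± 1.12 CPM (fold change 1.06, 95% interval 0.942 to 1.19).

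Levels of different INO80 genes were compared in the unit TPM, that is counts per kilobase of annotated exon scaled to the same sum in every library. Ino80c was the highest at 67.7 ± 3.86 TPM in control and 74.5 ± 3.84 TPM in YY1 siRNA samples (SD, n = 3), and Ino80d the lowest at 4.96 ± 0.653 and 6.26 ± 2.20 TPM, a 13.6-fold range in control samples. Tfpt (40.2 ± 2.51 TPM in control) and Mcrs1 (31.6 ± 0.731 TPM) followed Ino80c. The ATPase gene Ino80 stood in the middle at 20.3 ± 1.70 TPM, next to Ino80b at 20.4 ± 3.08 TPM.

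Below them came Ino80e at 11.5 ± 0.690 TPM, Actr8 at 11.1 ± 0.760 TPM, Actr5 at 8.28 ± 0.173 TPM and Nfrkb at 7.93 ± 0.481 TPM in control samples. Neighbours in this order whose control samples overlapped were Ino80b and Ino80, Ino80e and Actr8, and Actr5 and Nfrkb. Over the 6 samples Nfrkb and Ino80d overlapped as well. For scale, Yy1 stood at 69.1 ± 1.33 TPM in control and 41.1 ± 2.61 TPM in YY1 siRNA samples. With the longest transcript as the length, Ino80c (56.5 TPM in control) and Ino80d (4.74 TPM) kept the ends of the order, while Mcrs1 (42.7 TPM) stood above Tfpt (30.5 TPM), and Actr8 rose from the seventh place to the fourth at 18.4 TPM, 1.66 times its value by all exons. All exons of Actr8 and Nfrkb together come to 9009 and 11277 bases, against 3998 and 5398 for their longest transcripts.

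**Figure D4:**
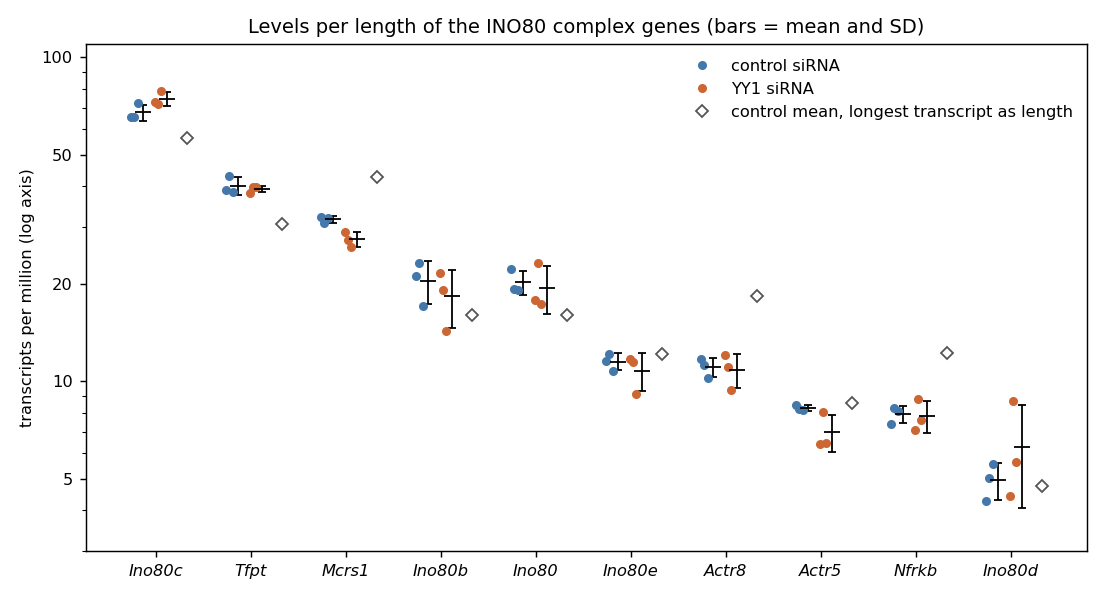
Levels in TPM on a log axis for the 10 INO80 genes, ordered by the control mean, with points for samples, black bars for mean and SD of each group of 3, and open diamonds for the control mean with the longest transcript as length. Levels run from 67.7 for Ino80c to 4.96 for Ino80d.

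The 3 INO80 genes with the longest spans on the genome had their highest level in the same library. Ino80d spans 156250 bases, Ino80 104646 and Nfrkb 35142, and each peaked in YY1 siRNA sample 5, where none of the other 7 genes did. For Nfrkb the margin was small, at 28.2 CPM against 27.5 CPM in sample 6. Sample 5 held the highest value of 15.9% of all genes tested, and of 24.0% of the 4555 other tested genes at least as long as Nfrkb, of which control siRNA sample 1 held 24.5%. The pattern was noticed in these data, and 3 genes are too few to read against that background. Those 7, from Actr8 at 28018 bases to Ino80b at 3667, peaked in 5 other libraries. YY1 siRNA sample 6 held the highest values of Ino80c and Tfpt, 2 of the 10, against 27.1% of all genes tested. It also held the lowest values of Ino80b and Ino80e, for which no share over all genes was computed. The tested genes whose log2 CPM, centred on its mean, came closest to that of Ino80 over the 6 samples were Dip2b, Abcc5 and Piezo2, with root mean square differences of 0.014, 0.018 and 0.019 (log2) among 12147 genes searched. They were picked for this likeness, so their shared order of samples is part of the choice.

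The complexes nearest to INO80 were compared by the same fit. Over all genes tested, 0.00823% passed and 10.8% had an unadjusted p under 0.05, and a count of 0 in lists this short is not read as a result. The SRCAP complex, which deposits H2A.Z, had 0 of 6 tested genes past the threshold and 0 below 0.05 before adjustment (median log2 fold change 0.0083). Its smallest p belonged to Yeats4, a reader of acylated histones, at 38.2 ± 2.87 CPM with control siRNA and 35.03 ± 1.89 CPM with YY1 siRNA (SD, n = 3). The TIP60/p400 complex, which acetylates histones, had 0 of 11 past the threshold and 0 below 0.05 before adjustment (median -0.0032). Its smallest p belonged to the scaffold gene Epc1, at 23.6 ± 1.38 and 26.4 ± 0.884 CPM, with all YY1 siRNA samples above all control samples, as in 7.36% of all genes tested.

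The genes of H2A.Z, the variant that INO80 is linked to, did not pass either. H2afv stood at 56.6, 62.0 and 70.8 CPM with control siRNA and 71.9, 66.3 and 92.6 CPM with YY1 siRNA (log2 fold change 0.28, SE 0.129, edgeR adjusted p 0.468). H2afz, named after its values were seen, stood at 178, 188 and 220 CPM with control siRNA and 214, 217 and 316 CPM with YY1 siRNA (log2 fold change 0.35, SE 0.162, edgeR adjusted p 0.477). Both were highest in YY1 siRNA sample 6, as was Ino80c, but so were 27.1% of all genes tested. Whether the 3 genes moved together beyond that background was not tested.

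Of 21 tested SWI/SNF genes, 0 passed and 1 was lower at an unadjusted p under 0.05, against 5.46% of all genes tested (median log2 fold change -0.017). This was Bcl7a, a small accessory subunit, at 17.9, 17.4 and 16.3 CPM with control siRNA and 13.6, 14.7 and 15.2 CPM with YY1 siRNA (unadjusted p 0.0163, edgeR adjusted p 0.362). Of 12 tested ISWI and CHD remodeler genes, 0 passed and 0 had an unadjusted p under 0.05, against 10.8% of all genes tested (median -0.053). The smallest p was that of the helicase gene Chd2, at 97.0 ± 6.31 and 88.4 ± 9.36 CPM (SD, n = 3). The INO80 genes, with a median of 0.016, were not tested against these lists.

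**Figure D5:**
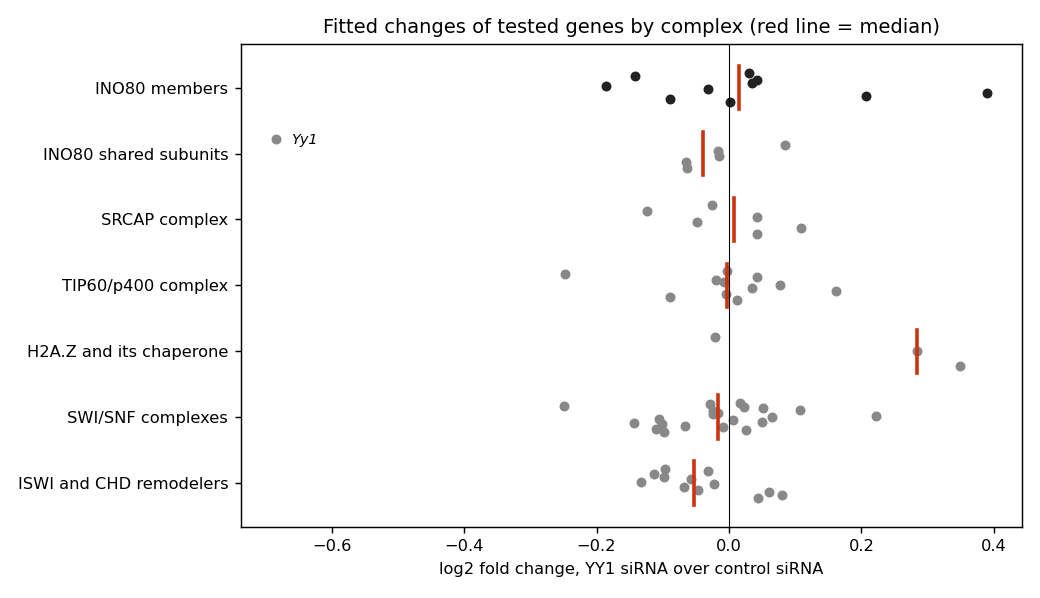
Fitted log2 fold changes (points) of the tested genes of INO80, its shared subunits, the SRCAP, TIP60/p400 and SWI/SNF complexes, the H2A.Z genes with their chaperone Anp32e, and the ISWI and CHD remodelers; red lines are medians. Yy1, counted among the shared subunits, lies at -0.68, and Ino80d at 0.39 is the highest of the points.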

How the data were processed

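Per the labels, RNA was extracted 48 hours after transfection. The authors deposited raw read counts per gene symbol, 1 table per sample. The tools named in the submitters' processing notes are STAR 2.6.1a and edgeR 3.30.0, with build mm10; how reads were counted, and with which annotation and strand setting, is not stated there. The 2 rows that name no gene (7.87% to 11.3% and 1.01% to 1.15% of counts) entered neither library sizes nor tests.

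The main test was edgeR 4.0.16 (R 4.3.3), two-sided quasi-likelihood, with filterByExpr, TMM and robust dispersion, over 12148 genes, adjusted by Benjamini and Hochberg with a threshold of 0.05. The steps were checked on simulated counts. CPM are TMM-normalised; intervals are 95%. At this depth 3 counts equal 0.145 to 0.191 CPM. Pairs of samples within a group differed by more than sampling noise (chi-square over degrees of freedom 3.04 to 30.9). Alternatives were RLE, library size alone, other filters, DESeq2 1.42.0, limma-voom (limma 3.58.1), non-robust dispersion, the no-gene share as covariate, longest-transcript lengths, shorter motifs and leaving out each sample.

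Gene models came from GENCODE M21 (mm10), matching 98.1% of symbols, and promoters from RefSeq (GRCm38.p6). The genes and lists were chosen with earlier results of these data known. Named genes were the 10 INO80 genes, the shared subunits, of each other list up to 3 genes at an unadjusted p under 0.05 or else the 1 with the smallest p, and the 3 genes most like Ino80. Malat1, Neat1, H2afz, Hirip3, Prpf31 and the overlapping or marker genes are named outside this rule.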

Additional observations from a re-analysis of the deposited data

Results flagged for a closer look

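Counts that fell in no gene, which enter no comparison, made up 10.7% of YY1 siRNA sample 5 and 11.3% of sample 6, above the highest control siRNA sample at 9.03%. Ino80d was higher in both of these samples than in any other, and its log2 fold change was 0.062 with this share in the fit. That fit cannot fully separate the share from the siRNA.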

How the results depend on the processing

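The labels do not state whether samples of the groups were paired, and no paired analysis was run. Yy1 passed under each of the 8 other settings and without each sample in turn, and 0 INO80 genes passed under any of these 14 alternatives. The number of INO80 genes at an unadjusted p under 0.05, 1 in the main test, was 0 with library size alone and 0 to 2 without each sample. The 1 was Ino80d with DESeq2 (unadjusted p 0.0254) and Actr5, lower, with the no-gene share as covariate (unadjusted p 0.0484). The median of the 10 was -0.0053 with library size alone and -0.024 to 0.029 without each sample. Changed genes, 1 in the main test, numbered 7 with library size alone, 83 without a filter on low counts, 22 with DESeq2 and 1 to 41 without each sample, 41 being without YY1 siRNA sample 4, 3 without sample 6 and 2 without control siRNA sample 3; the cause was not tested. Ino80c, Ino80d, Actr5 and Mcrs1 kept their direction throughout, while genes near 0 changed sign. Ino80 was -0.018 with library size alone, -0.0026 with limma-voom and -0.052 with the covariate. The covariate also gave 0.070 for Ino80b, 0.042 for Ino80e, -0.074 for Nfrkb and -0.020 for Tfpt. Without each sample the log2 fold change ran from -0.103 to 0.077 for Ino80, -0.213 to 0.0095 for Ino80b, -0.083 to 0.022 for Ino80e, -0.034 to 0.075 for Actr8, -0.019 to 0.125 for Nfrkb and -0.035 to 0.083 for Tfpt. With this spread, changes of the INO80 genes within their 95% intervals remain possible. An interval that leaves out 0 was not enough to pass after adjustment over all 12148 genes tested, as Ino80c shows (edgeR adjusted p 0.432). The motif cut to AANATGGC occurred in promoters of 2 of the 6 genes, Ino80b and Ino80e.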

Other observations

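Hirip3, whose annotated start lies within the span of Ino80e on the opposite strand, had a log2 fold change of -0.26 (SE 0.095, unadjusted p 0.0176, edgeR adjusted p 0.366), with 13.2 ± 0.598 CPM for control siRNA and 11.02 ± 0.485 CPM for YY1 siRNA (SD, n = 3), while Ino80e stood at 25.2 ± 1.36 and 24.6 ± 2.08 CPM. Prpf31, a splicing factor gene that starts 56 bases from Tfpt in the opposite direction, stood at 30.2 ± 2.22 and 26.9 ± 2.15 CPM (unadjusted p 0.0844, edgeR adjusted p 0.503), against 13.8 ± 0.886 and 14.2 ± 1.03 CPM for Tfpt. Both neighbours were named after their values were seen, and whether they differ from their INO80 partners was not tested.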
